A study of Homo sapiens with 18 samples.

Results

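Hyaluronan is a long, unbranched sugar polymer of alternating glucuronic acid and N-acetylglucosamine that is spun out of the cell at the plasma membrane and is abundant in the stroma of pancreatic cancer. Its precursors come from a pair of routes. The hexosamine pathway turns fructose-6-phosphate and glutamine into UDP-N-acetylglucosamine (UDP-GlcNAc), and UDP-glucose dehydrogenase oxidizes UDP-glucose to UDP-glucuronate. Hyaluronan synthases join both sugars, and CD44 is the main receptor of the polymer on the cell surface. The expression of 9 genes of this path was followed in PANC-1 cells, out of 26485 genes listed. They are the hyaluronan synthases HAS2 and HAS3, the dehydrogenase UGDH, the hexosamine pathway enzymes GFPT1, GFPT2, GNPNAT1, PGM3 and UAP1, and the receptor CD44. The genes were chosen by name, HAS3 and UAP1 because they were higher in C16-treated cells, so the values of all 9 genes in the C16 libraries are a description and carry no test. The stated reason for the choice names no value of the siRNA libraries, and the genes were tested there, but results of those libraries were also known when the genes were chosen.

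PANC-1 is an established human cell line from a pancreatic ductal adenocarcinoma. Its RNA was sequenced in 18 libraries, 3 in each of 6 groups, all taken 72 h after treatment. The first run held cells transfected with a control siRNA or with either of 2 siRNAs, PKR siRNA 1 and PKR siRNA 2, directed against EIF2AK2, the gene of the RNA-activated kinase PKR. The second run held cells given the solvent DMSO, or the PKR inhibitor C16 at 400 or 800 nM. The runs were normalized separately, so a difference between the runs cannot be told apart from the treatments and each comparison stays within a run. No label states that replicates were separate cultures, so p-values measure the spread between these libraries, which may be technical. Libraries held 1512940 to 1873906 reads on genes in the siRNA run and 894145 to 1474308 in the C16 run. EIF2AK2 had 97.4 ± 5.21 normalized counts with control siRNA, 11.1 ± 2.19 under PKR siRNA 1 and 8.65 ± 0.726 under PKR siRNA 2 (SD, n = 3). Of 6 epithelial markers, 6 averaged 10 normalized counts or more in the siRNA libraries and 5 in the C16 libraries. The leukocyte markers PTPRC and CD3E and the fibroblast markers COL1A2, DCN and PDGFRA were at 0 in every library. CD68 carried most of the leukocyte sum, which was 149 to 173 normalized counts with control siRNA, 208 to 276 under PKR siRNA 1 and 197 to 206 under PKR siRNA 2, and 52.4 to 57.3 in DMSO, 141 to 171 at 400 nM and 107 to 123 at 800 nM. COL1A1 carried most of the fibroblast sum, which was 84.2 to 114 with control siRNA, 24.5 to 29.99 under PKR siRNA 1 and 118 to 134 under PKR siRNA 2, the order of HAS2, UGDH and CD44. In the C16 run the fibroblast sum was 148 to 184 in DMSO, 119 to 179 at 400 nM and 78.2 to 116 at 800 nM. The part of these markers in the members' values was not tested. The endothelial sum was at most 2.14.

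The question put to the C16 libraries was how the path stood after the kinase inhibitor. Both doses went with higher HAS3, UAP1 and GFPT1 and lower UGDH, while GNPNAT1 and PGM3 overlapped the DMSO libraries at both doses. Of the 8 members that averaged 10 normalized counts or more, 3 were higher by over 1.5-fold with no overlap of libraries at 800 nM and 1 was lower. At 400 nM these numbers were 3 and 0. Among the 9963 genes of that mean, 11.7% were higher in this way and 13.9% lower at 800 nM, and 7.37% and 6.17% at 400 nM. Since this contrast chose the members, nothing is read from these counts. HAS3, counted as higher at both doses, averaged 6.84 normalized counts in DMSO. It passed the minimum mean of 10 only through its C16 libraries.

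HAS3 is the synthase with the larger difference in the C16 libraries. HAS3 had 6.80, 7.62 and 6.09 normalized counts in DMSO, which were 7, 8 and 8 reads. At 400 nM C16 it had 69.1, 64.6 and 81.9 normalized counts, and at 800 nM 60.5, 62.1 and 82.1. Every treated library lay far above every DMSO library, and the libraries of the 2 doses overlapped. The mean was 10.5 times that of DMSO at 400 nM and 9.98 times at 800 nM, a log2 fold change of 3.21 and 3.13 (SE 0.20 each). With DMSO at so few reads the size of the fold depends on the pseudocount, and with a pseudocount of 5 in place of 1 it was 2.69 and 2.62 on the log2 scale. In bulk RNA, fewer cells that express a gene and less RNA per cell cannot be told apart.

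HAS2, the other synthase, was low in this run. HAS2 had 14.6, 17.1 and 9.90 normalized counts in DMSO, 10.6, 15.0 and 12.8 at 400 nM, and 10.1, 7.31 and 1.91 at 800 nM. The 400 nM libraries lay within the DMSO range, and the 800 nM libraries reached from within it to far below. The third 800 nM library held only 2 reads of HAS2 and decides the size of the difference, which was -1.17 on the log2 scale with it and -0.60 without it. Per kilobase of exon, HAS2 made up 76.2, 77.1 and 70.8% of the synthase signal in DMSO, 18.7, 25.8 and 18.9% at 400 nM, and 19.9, 15.0 and 3.36% at 800 nM. HAS3 was thus the smaller share of the synthase transcripts in every DMSO library and the larger share in every C16 library. The sum of HAS2 and HAS3 was 5.63 ± 1.27 normalized counts per kilobase in DMSO, 18.6 ± 1.78 at 400 nM and 15.9 ± 1.27 at 800 nM.

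**Figure D1:**
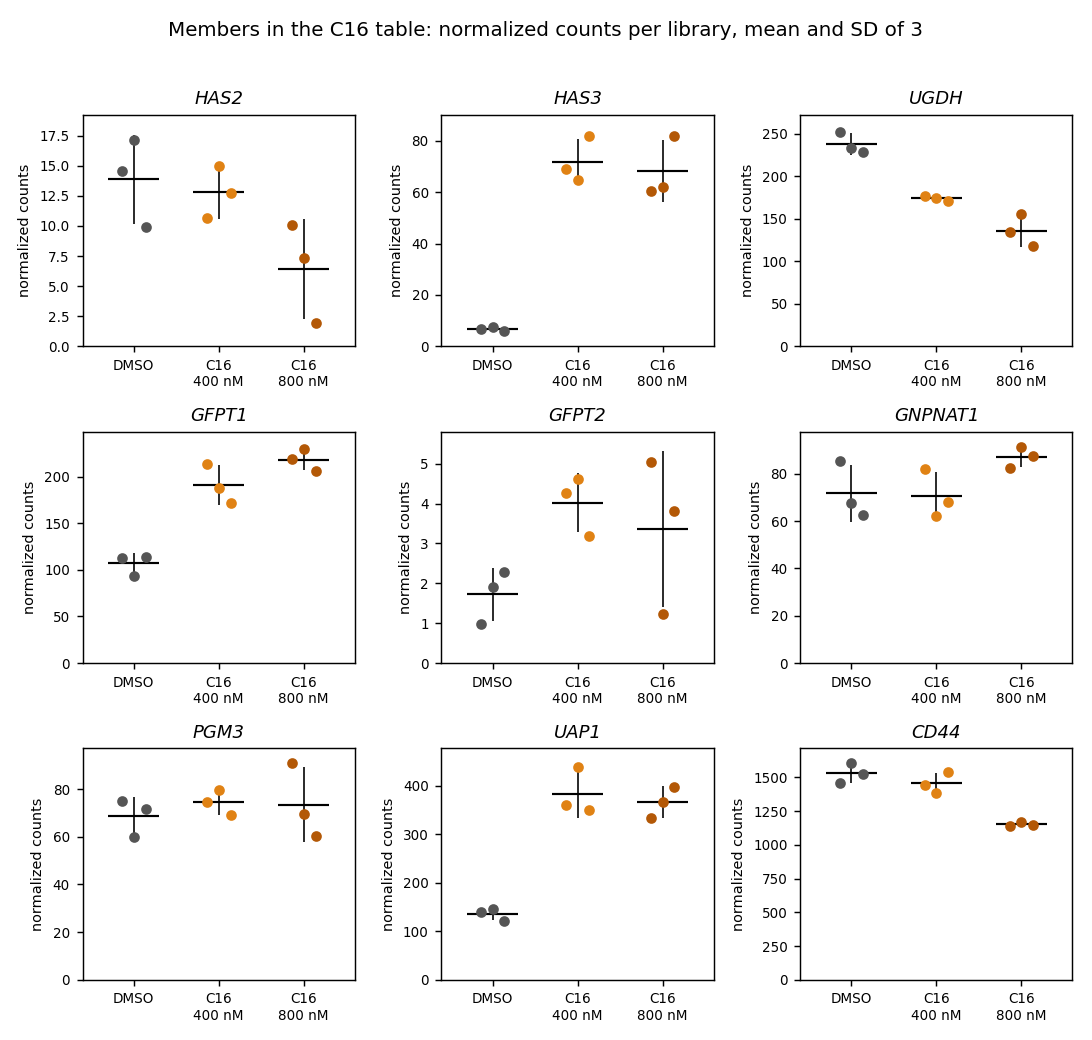
Normalized counts of the 9 members in each library of the C16 run (y axis, from 0) for DMSO, 400 nM and 800 nM C16 (x axis). Points are libraries, horizontal bars the mean and vertical bars the SD of 3 libraries. HAS3 lies between 6.09 and 7.62 in DMSO and between 60.5 and 82.1 at 800 nM, and UGDH is lower in every C16 library.

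UAP1 makes UDP-GlcNAc in the last step of the hexosamine pathway. UAP1 had 140, 146 and 121 normalized counts in DMSO, 359, 438 and 350 at 400 nM, and 334, 367 and 398 at 800 nM. All 6 treated libraries lay above all 3 DMSO libraries. The means were 2.82 and 2.70 times that of DMSO at 400 and 800 nM, with log2 fold changes of 1.49 and 1.43 (SE 0.09 each). GFPT1, the enzyme of the first and rate-limiting step, also had no overlap with DMSO. GFPT1 had 113, 93.3 and 114 normalized counts in DMSO, 214, 188 and 171 at 400 nM and 219, 229 and 206 at 800 nM, and its means were 1.79 and 2.04 times that of DMSO. The steps between them did not stand apart in this way. GNPNAT1, which acetylates glucosamine-6-phosphate, ranged from 62.4 to 85.5 in DMSO, from 62.3 to 81.9 at 400 nM and from 82.7 to 91.4 at 800 nM. PGM3, the phosphomutase that follows it, ranged from 60.0 to 74.8 in DMSO, from 69.2 to 79.6 at 400 nM and from 60.1 to 90.8 at 800 nM. GFPT2, the second isoform of the first enzyme, had 1 to 5 reads in every library of this run, so that no fold change is given.

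UGDH supplies the glucuronate of the polymer. UGDH had 253, 233 and 228 normalized counts in DMSO, 177, 174 and 171 at 400 nM and 134, 156 and 118 at 800 nM. The 3 groups did not overlap, and each step in dose had a lower range. The log2 fold change was -0.45 at 400 nM and -0.81 at 800 nM (SE 0.10 each). Per kilobase, UGDH over UAP1 was 1.28 ± 0.107 in DMSO, 0.334 ± 0.0390 at 400 nM and 0.273 ± 0.0496 at 800 nM. CD44 had 1462, 1610 and 1528 normalized counts in DMSO, 1441, 1388 and 1544 at 400 nM, and 1141, 1170 and 1147 at 800 nM. Its 400 nM libraries overlapped DMSO, whereas its 800 nM libraries lay below all the others, with a log2 fold change of -0.41 (SE 0.06). Between 800 and 400 nM the log2 difference was -0.08 for HAS3, -0.06 for UAP1, 0.19 for GFPT1 and -0.36 for UGDH. The summed level of the 6 epithelial markers moved in the same order as CD44 and UGDH, from 7171 to 7572 in DMSO through 6033 to 6544 at 400 nM to 5172 to 5685 at 800 nM, and its part in their values was not tested.

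The windows before the start sites are shown for HAS3, UAP1, GFPT1 and UGDH, the tested members whose libraries lay apart from DMSO at both doses, so that what they share can be read beside their values. The sequences are RefSeq promoter windows on GRCh38.p14, written 5′ to 3′ on the strand of the gene, from 250 bases before the start up to the first base of any annotated exon, with exon bases at either end left out. Capitals mark matches on either strand. The GC box was searched as GGGCGG. The CCAAT box was searched as its 5 letters. The E box was searched as CACGTG. Part of the ER stress response element was searched as CCACG. UAP1 has 3 windows, and the first is printed. The HAS3 window lies inside the deposited gene model of HAS3, which starts upstream at 69105564, so it precedes a start within that model. HAS3 lies at chr16:69107290-69107539 (+), UAP1 at chr1:162561309-162561505 (+), GFPT1 at chr2:69387255-69387477 (-) and UGDH at chr4:39527599-39527689 (-).
HAS3: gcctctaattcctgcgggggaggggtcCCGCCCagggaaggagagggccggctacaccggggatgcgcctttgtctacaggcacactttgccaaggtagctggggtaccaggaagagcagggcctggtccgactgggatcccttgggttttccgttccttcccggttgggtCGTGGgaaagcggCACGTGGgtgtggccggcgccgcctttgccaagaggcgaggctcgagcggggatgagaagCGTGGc
UAP1: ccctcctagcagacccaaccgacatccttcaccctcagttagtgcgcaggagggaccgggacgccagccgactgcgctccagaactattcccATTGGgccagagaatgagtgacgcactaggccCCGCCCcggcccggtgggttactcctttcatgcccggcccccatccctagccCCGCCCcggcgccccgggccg
GFPT1: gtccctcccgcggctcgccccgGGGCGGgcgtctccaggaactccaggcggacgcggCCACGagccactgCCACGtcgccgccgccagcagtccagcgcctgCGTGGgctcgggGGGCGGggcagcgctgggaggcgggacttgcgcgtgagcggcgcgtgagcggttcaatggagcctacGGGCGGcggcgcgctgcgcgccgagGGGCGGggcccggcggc
UGDH: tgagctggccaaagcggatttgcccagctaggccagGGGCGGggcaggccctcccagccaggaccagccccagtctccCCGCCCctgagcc

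Within the full windows of 300 bases, CACGTG was found for HAS3 alone among the members with an entry, where it overlaps a CCACG on the other strand, and 7.26% of all 35116 windows hold it. CCACG was found for each member with an entry, 3 times each for HAS3, GFPT1, GFPT2 and the first window of PGM3, and 38.1% of windows hold at least 1 match. The first window of UAP1 and the second of PGM3 held none. GGGCGG was found in each member's windows, against 45% of all windows, and CCAAT in windows of GFPT2, PGM3 and UAP1, against 34.6%. TGANTCA (AP-1), held by 7.71% of windows, and TGACGTCA (CRE), held by 1.85%, were found in no member's window. HAS2 is named only. A match is a run of letters and not a site in use.

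In the siRNA libraries the question was whether lowering PKR itself moved the same path. Members were called under each siRNA, and HAS2 was called in opposite directions. Values were tested with limma on log2(normalized count + 1), with Benjamini-Hochberg adjustment over the 10593 genes with a mean of at least 10. A gene was called where the adjusted p was under 0.05 and the fold change over 1.5. PKR siRNA 1 called 1 of 8 members up, GNPNAT1, and 1 down, HAS2, where 8.53% of all genes were called up and 12.6% down. PKR siRNA 2 called 2 up, HAS2 and UGDH, and 1 down, HAS3, where 10.8% of all genes were called up and 12.8% down. The median log2 fold change of the 8 members was 0.04 with either siRNA, beside -0.01 over all genes.

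**Figure D2:**
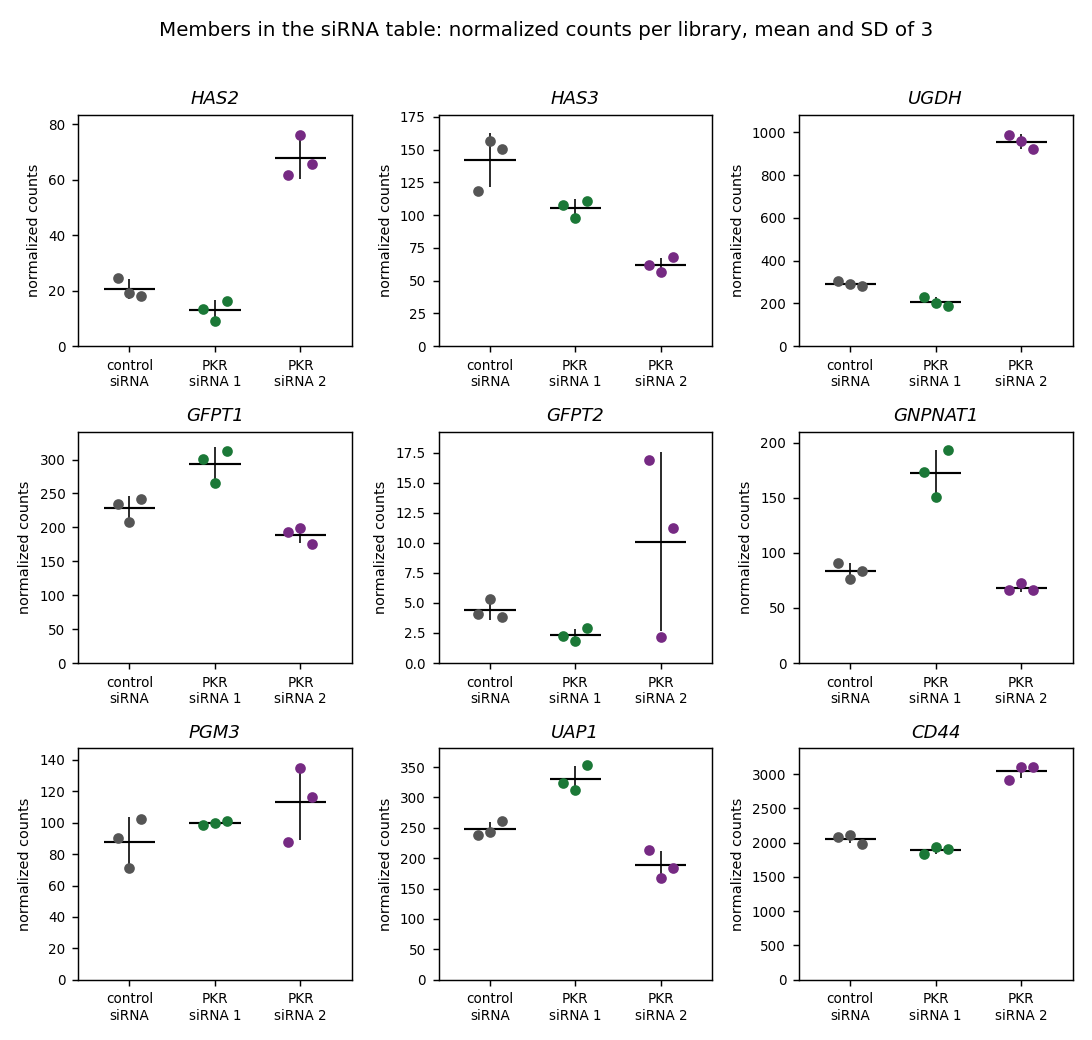
Normalized counts of the 9 members in each library of the siRNA run (y axis, from 0) for PKR siRNA 1, PKR siRNA 2 and their control (x axis). Points are libraries, horizontal bars the mean and vertical bars the SD of 3 libraries. UGDH and HAS2 stand high under PKR siRNA 2 alone, and GNPNAT1 under PKR siRNA 1 alone.

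The synthases changed places under PKR siRNA 2. HAS2 had 24.6, 19.3 and 18.0 normalized counts with control siRNA, 13.3, 9.07 and 16.4 under PKR siRNA 1, and 61.7, 76.1 and 65.8 under PKR siRNA 2. No libraries overlapped between the groups. HAS2 rose under PKR siRNA 2 to 3.28 times the control, a log2 fold change of 1.68 (95% interval 1.22 to 2.13, limma adjusted p = 3.13e-09). With PKR siRNA 1 its log2 fold change was -0.66 (-1.12 to -0.20, limma adjusted p = 0.0148). That call rests on 10 to 24 reads per library and was lost without the first control library (-0.53, adjusted p = 0.0916), without the second PKR siRNA 1 library (-0.44, adjusted p = 0.13) and in DESeq2 (-0.67, adjusted p = 0.129). Over all 18 alternatives its adjusted p ranged from 0.00437 to 0.13.

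HAS3 went the other way from HAS2 under PKR siRNA 2. HAS3 had 118, 157 and 151 normalized counts with control siRNA, 108, 98.0 and 111 under PKR siRNA 1, and 61.7, 56.8 and 67.7 under PKR siRNA 2. The ranges were apart, the control libraries being highest. HAS3 fell under PKR siRNA 2 to 0.437 of the control, a log2 fold change of -1.17 (-1.42 to -0.93, limma adjusted p = 3.4e-13). With PKR siRNA 1 the value was -0.41 (-0.66 to -0.17, limma adjusted p = 0.00418), under 1.5-fold. HAS3 was thus lower with both siRNAs and higher with C16. HAS3 had 142 ± 20.8 normalized counts (115, 146 and 159 reads) with control siRNA and 6.84 ± 0.764 (7, 8 and 8 reads) in DMSO. A read was worth 0.948 to 1.07 normalized counts in the control siRNA libraries and 0.761 to 0.972 in DMSO. The HAS2 share within a library also differed, at 18.2 ± 4.87% with control siRNA and 74.7 ± 3.38% in DMSO. Run and treatment differ together between these groups, so what set their levels apart was not tested.

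Per kilobase, HAS2 was 18.2 ± 4.87% of the synthase signal with control siRNA, 15.3 ± 2.98% under PKR siRNA 1 and 62.0 ± 4.12% under PKR siRNA 2 (SD, n = 3). The 3 PKR siRNA 2 libraries, at 59.9, 66.7 and 59.2%, lay above all the others. The difference from control was 43.8 points (exact permutation test, two-sided, p = 0.1, adjusted p = 0.129 over 9 comparisons), and 0.1 is the smallest p that 3 against 3 libraries allow. The sum of both synthases changed less, at 35.3 ± 3.26 normalized counts per kilobase with control siRNA and 33.4 ± 1.77 under PKR siRNA 2 (exact permutation p = 0.4). With PKR siRNA 1 it was 25.5 ± 2.50, below every control library (exact permutation p = 0.1).

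**Figure D3:**
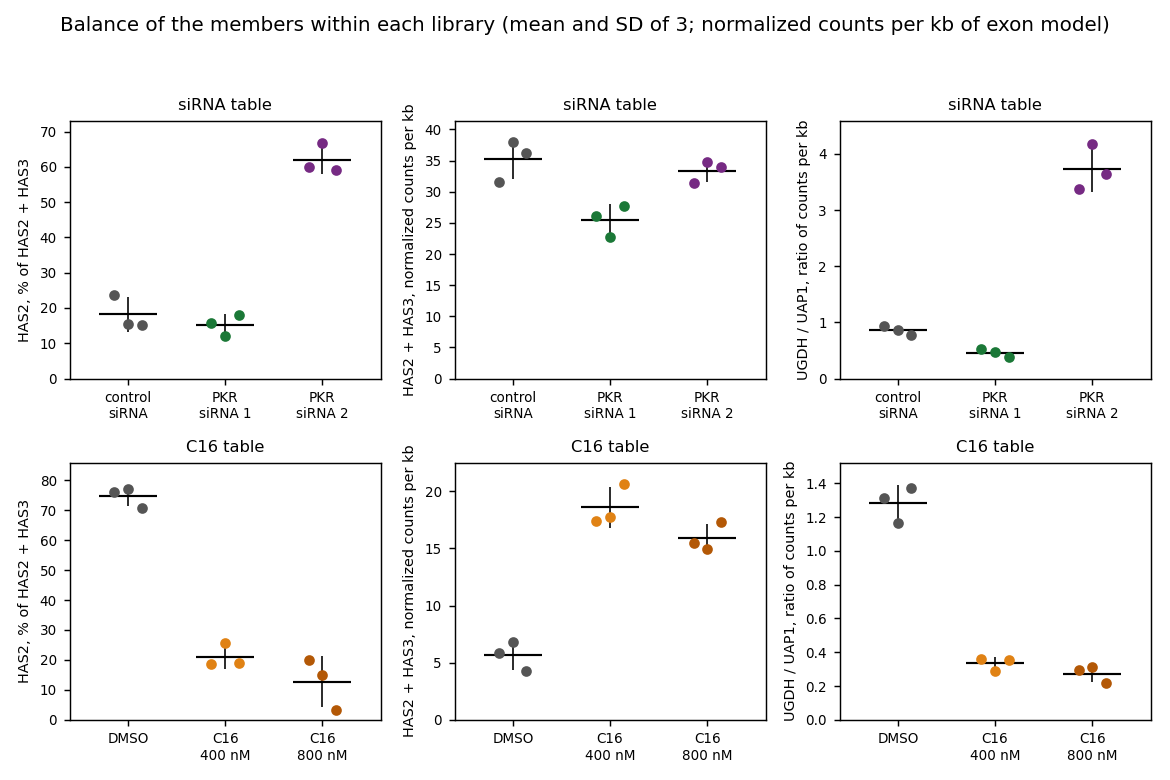
Share of HAS2 in the synthase signal (left), sum of HAS2 and HAS3 (middle) and UGDH over UAP1 (right), each from normalized counts per kilobase, in the siRNA run (top) and the C16 run (bottom). Points are libraries, bars the mean and SD of 3. HAS2 holds 62.0% of the signal under PKR siRNA 2 and 18.2% with control siRNA, whereas it holds 74.7% in DMSO and 12.8% at 800 nM C16.

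UGDH, the source of UDP-glucuronate, had 304, 291 and 280 normalized counts with control siRNA, 231, 204 and 188 under PKR siRNA 1, and 990, 959 and 922 under PKR siRNA 2. The 3 groups did not overlap. UGDH rose under PKR siRNA 2 to 3.28 times the control, a log2 fold change of 1.71 (1.57 to 1.85, limma adjusted p = 2.21e-34). With PKR siRNA 1 it was 0.713 of the control, at -0.49 on the log2 scale (-0.63 to -0.35, limma adjusted p = 2.23e-08), under 1.5-fold. CD44 had the same order of groups at a smaller scale. CD44 had 2082, 2105 and 1984 normalized counts with control siRNA, 1834, 1933 and 1913 under PKR siRNA 1, and 2919, 3100 and 3107 under PKR siRNA 2. With PKR siRNA 2 it was 1.48 times the control (log2 fold change 0.56, 0.48 to 0.65, limma adjusted p = 1.8e-19), just under the 1.5-fold limit, and without the first PKR siRNA 2 library it passed that limit at 0.59. Under PKR siRNA 1 it was at -0.12 (-0.21 to -0.03, limma adjusted p = 0.0185, and up to 0.103 over the alternatives). The summed epithelial markers moved in the same order as UGDH and CD44, from 3052 to 3280 under PKR siRNA 1, 5358 to 5451 with control siRNA and 9586 to 10233 under PKR siRNA 2, and their part in these values was not tested.

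GNPNAT1, UAP1 and GFPT1 of the hexosamine pathway lay on the opposite side of the control from UGDH under each siRNA. GNPNAT1 had 90.4, 76.3 and 83.4 normalized counts with control siRNA, 173, 151 and 193 under PKR siRNA 1, and 66.6, 72.9 and 65.8 under PKR siRNA 2. The PKR siRNA 1 libraries were far above the rest. GNPNAT1 rose to 2.07 times the control under PKR siRNA 1 (log2 fold change 1.03, 0.79 to 1.28, limma adjusted p = 2.09e-11), and its value under PKR siRNA 2 was -0.28 (-0.52 to -0.04, limma adjusted p = 0.0514). UAP1 and GFPT1 had the same pattern, within 1.5-fold of the control. UAP1 had 238, 244 and 261 normalized counts with control siRNA, 324, 312 and 353 under PKR siRNA 1 and 214, 167 and 184 under PKR siRNA 2. Its log2 fold changes were 0.41 (limma adjusted p = 3.85e-05) and -0.40 (adjusted p = 5.9e-05). GFPT1 had 234, 208 and 242 with control siRNA, 301, 265 and 313 under PKR siRNA 1, and 193, 199 and 175 under PKR siRNA 2, and its log2 fold changes were 0.36 (limma adjusted p = 0.000374) and -0.27 (adjusted p = 0.00741). In each of these genes the PKR siRNA 1 libraries were above the control libraries and the PKR siRNA 2 libraries below.

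PGM3, the mutase of the hexosamine pathway, had 90.4, 70.9 and 102 normalized counts with control siRNA, 98.9, 99.8 and 101 under PKR siRNA 1 and 87.5, 135 and 117 under PKR siRNA 2, and all groups overlapped. Its log2 fold change was 0.20 (-0.06 to 0.46, limma adjusted p = 0.21) and 0.35 (0.10 to 0.61, adjusted p = 0.0197). GFPT2 was under the minimum mean. It had 4, 5 and 4 reads with control siRNA, 2, 2 and 3 under PKR siRNA 1, and 17, 2 and 12 under PKR siRNA 2, whose second library stood apart from the other two.

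**Figure D4:**
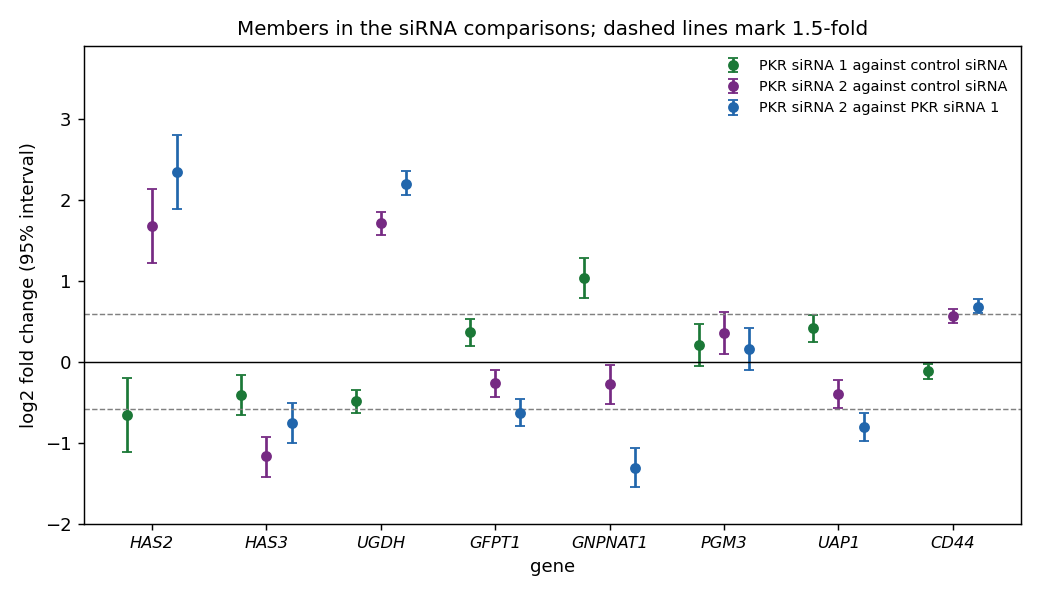
Log2 fold change (y axis) of the 8 tested members (x axis) under PKR siRNA 1 and PKR siRNA 2 against control siRNA and between both siRNAs. Points are limma estimates with 95% intervals, and dashed lines mark 1.5-fold. UGDH reads -0.49, 1.71 and 2.20, and GNPNAT1 reads 1.03, -0.28 and -1.31.

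The siRNAs were compared with each other directly. Of 8 members, 3 were called higher under PKR siRNA 2 than under PKR siRNA 1, HAS2, UGDH and CD44, and 4 lower, HAS3, GFPT1, GNPNAT1 and UAP1. Of all genes, 16.4% were called higher and 15.3% lower. The log2 differences reached 2.34 for HAS2 (1.88 to 2.80, limma adjusted p = 1.47e-14), 2.20 for UGDH (2.06 to 2.35, adjusted p = 1.05e-41) and -1.31 for GNPNAT1 (-1.55 to -1.07, adjusted p = 8.68e-16). PGM3 was at 0.15 (-0.10 to 0.41, limma adjusted p = 0.317). UGDH over UAP1 per kilobase was 0.860 ± 0.0744 with control siRNA, 0.461 ± 0.0667 under PKR siRNA 1 and 3.73 ± 0.409 under PKR siRNA 2. The 3 groups of this ratio did not overlap (exact permutation p = 0.1 for each pair). EIF2AK2 itself was at -0.31 on the log2 scale between the siRNAs (limma adjusted p = 0.282).

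By level per kilobase with control siRNA, CD44 led with 308 ± 9.60 normalized counts per kilobase, followed by UAP1 with 106 ± 5.02 and UGDH with 91.2 ± 3.80. HAS3 (29.0 ± 4.26), GFPT1 (26.2 ± 2.01) and GNPNAT1 (21.2 ± 1.79) came next, and HAS3 and GFPT1 did not differ beyond their spread. PGM3 (13.8 ± 2.50), HAS2 (6.31 ± 1.07) and GFPT2 (1.47 ± 0.278) were lowest. In DMSO the order was CD44 (230 ± 11.1), UGDH (74.5 ± 4.00), UAP1 (58.3 ± 5.54), GNPNAT1 (18.3 ± 3.08), GFPT1 (12.3 ± 1.34), PGM3 (10.8 ± 1.22), HAS2 (4.24 ± 1.12), HAS3 (1.40 ± 0.156) and GFPT2 (0.571 ± 0.224). GFPT1 and PGM3 were within their spread of each other there. At 400 and 800 nM C16, HAS3 was at 14.7 ± 1.84 and 13.9 ± 2.45 normalized counts per kilobase and PGM3 at 11.7 ± 0.819 and 11.5 ± 2.47, which at 800 nM did not differ beyond their spread.

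Some exons are shared with genes on the opposite strand, and the source does not say whether reads were counted by strand. CHTF8 covers 7.39% of the exon bases of HAS3, DOPEY1 9.59% of those of PGM3, and HAS2-AS1 6.14% of those of HAS2. CHTF8, a subunit of a clamp loader, had 101 ± 5.38 normalized counts in DMSO, 85.5 ± 3.71 at 400 nM and 71.6 ± 2.93 at 800 nM. In the siRNA run it had 194 ± 11.8 with control siRNA, 216 ± 4.40 under PKR siRNA 1 and 146 ± 4.06 under PKR siRNA 2. Its part in HAS3 was not tested in either run. HAS2-AS1 had means of 1.91 and 2.73 normalized counts in the siRNA and C16 runs, and DOPEY1 29.9 and 13.3.

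The neighbours of the path were followed in 4 lists of 69 genes that hold no member, of which 51 were tested in the siRNA run and 50 in the C16 run. PKR siRNA 1 called 4 of 51 up and 11 down, where 8.53% and 12.6% of all genes were called. PKR siRNA 2 called 3 up and 4 down, where 10.8% and 12.8% of all genes were. In the direct comparison 11 of 51 were called higher under PKR siRNA 2 than under PKR siRNA 1 and 7 lower, where 16.4% and 15.3% of all genes were. C16 called 11 of 50 up and 5 down at 800 nM and 9 up and 3 down at 400 nM. The shares of all genes called by limma were 11.6% up and 14.1% down at 800 nM, and 7.08% and 5.45% at 400 nM. Between 800 and 400 nM limma called 0 of the 50 genes, with 17 at an unadjusted p under 0.05, and 0 were called by DESeq2 and 1, AMDHD2, by edgeR. Of all genes 1.13% were called higher and 3.95% lower at 800 than at 400 nM.

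The list of hexosamine and UDP-sugar supply holds enzymes that feed or drain the hexosamine pathway. With C16, 6 of its 15 tested genes were called up and 0 down at 800 nM, beside 11.6% and 14.1% of all genes. At 400 nM, 5 were called up and 0 down, beside 7.08% and 5.45% of all genes. At either dose 8 of the 15 had an unadjusted p under 0.05 in limma. Its median log2 fold change was 0.27 and 0.35, beside 0.00 over all genes. HK2, a hexokinase that phosphorylates glucose, had 7.77, 7.62 and 5.33 normalized counts in DMSO, 21.3, 19.6 and 29.8 at 400 nM and 29.3, 40.2 and 34.4 at 800 nM, without overlap with DMSO. HK2 rose by 1.63 and 2.17 on the log2 scale (limma adjusted p = 3.6e-06 and 1.4e-09). The DMSO mean of HK2, 6.91, was under the minimum mean for testing, which HK2 passed only through its C16 libraries. HK2 was counted among the genes called up at both doses. GNPDA1, which converts glucosamine-6-phosphate back to fructose-6-phosphate, rose by 0.98 at 800 nM (SE 0.09, limma adjusted p = 5.43e-14). SLC1A5, a glutamine transporter, rose by 0.84 at 400 nM (SE 0.09, limma adjusted p = 7.68e-12). At 800 nM it was at 0.55 (limma adjusted p = 2.98e-07), under 1.5-fold. In the siRNA run this list had 1 gene called up and 1 down under PKR siRNA 1, beside 8.53% and 12.6% of all genes. Under PKR siRNA 2 it had 0 up and 2 down, beside 10.8% and 12.8%. HK2 was the rise under PKR siRNA 1, at 1.15 (SE 0.22, limma adjusted p = 9.71e-06). With PKR siRNA 2 HK2 fell by 0.82 (SE 0.22, limma adjusted p = 0.00132) and HK1, another hexokinase, by 0.65 (SE 0.08, adjusted p = 4.98e-11). GLUL, glutamine synthetase, fell under PKR siRNA 1 from 68.6 ± 4.72 to 20.2 ± 2.04 normalized counts (log2 fold change -1.72, SE 0.17, limma adjusted p = 1.19e-14).

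Among genes for hyaluronan turnover, receptors and binding proteins, 17 were listed and only 5 passed the minimum mean. PKR siRNA 1 called 1 up and 2 down, beside 8.53% and 12.6% of all genes, and PKR siRNA 2 called 2 up and 1 down, beside 10.8% and 12.8%. C16 called 2 up and 0 down at 800 nM, beside 11.6% and 14.1% of all genes. At 400 nM it called 2 up and 1 down, beside 7.08% and 5.45%. With 5 tested genes nothing is read from these counts. TMEM2, a cell-surface hyaluronidase, had 63.3 ± 2.88 normalized counts with control siRNA, 34.0 ± 2.02 under PKR siRNA 1 and 109 ± 8.93 under PKR siRNA 2. It fell under PKR siRNA 1 (log2 fold change -0.88, limma adjusted p = 7.2e-07) and rose under PKR siRNA 2 (0.77, adjusted p = 9.49e-06). With C16 TMEM2 rose from 28.8 ± 6.02 to 54.2 ± 3.86 and 73.9 ± 8.93 normalized counts at 400 and 800 nM (log2 fold changes 0.91 and 1.34, limma adjusted p = 3.78e-05 and 2.9e-09). HAPLN3, a link protein that binds hyaluronan to proteoglycans, went from 119 ± 5.37 to 45.3 ± 2.45 under PKR siRNA 1 and 262 ± 4.77 under PKR siRNA 2. Its log2 fold changes were -1.38 and 1.13 (limma adjusted p = 4.85e-18 and 2.58e-14). LAYN, the membrane receptor layilin, went the opposite way, with log2 fold changes of 0.89 and -1.60 (limma adjusted p = 0.00234 and 9.43e-08). In the C16 run LAYN had 7.77, 11.4 and 0.761 normalized counts in DMSO, 12.8, 10.4 and 23.4 at 400 nM and 10.1, 11.0 and 16.2 at 800 nM, so the groups overlapped. The DMSO mean of LAYN, 6.65, was under the minimum of 10, which LAYN passed only through its C16 libraries. Its calls there (1.44 and 1.19, limma adjusted p = 0.00811 and 0.0191) were lost without the third DMSO library (0.58 and 0.33, adjusted p = 0.277 and 0.504). They were also lost without the third library of the treated group (1.12 and 1.00, adjusted p = 0.0956 and 0.0988) and in DESeq2 (adjusted p = 0.272 and 0.345). HYAL2, a hyaluronidase, fell by 0.72 on the log2 scale at 400 nM (SE 0.19, limma adjusted p = 0.00303) and was at -0.57 at 800 nM (adjusted p = 0.0119), under 1.5-fold.

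UDP-GlcNAc also feeds O-GlcNAc, N-glycans and sialic acid, followed in 16 genes of which 13 were tested. OGT, which puts O-GlcNAc on proteins, had 412 ± 14.3 normalized counts with control siRNA, 173 ± 8.75 under PKR siRNA 1 and 404 ± 7.23 under PKR siRNA 2. OGT fell under PKR siRNA 1 (log2 fold change -1.25, limma adjusted p = 1.05e-24). MGEA5, the enzyme that takes O-GlcNAc off again, fell too, by 0.93 (limma adjusted p = 2.92e-18), and DPAGT1, which starts the lipid-linked N-glycan precursor, rose by 0.66 (adjusted p = 4.62e-07). PKR siRNA 1 called 1 gene of the list up and 3 down, beside 8.53% and 12.6% of all genes. PKR siRNA 2 called 0 in limma, edgeR and DESeq2, with 5 at an unadjusted p under 0.05 in limma. Of all genes limma called 10.8% up and 12.8% down there. At 400 nM C16, 1 was called up and 0 down, beside 7.08% and 5.45% of all genes. At 800 nM, 2 were called up and 3 down, beside 11.6% and 14.1%. MGEA5 fell at 800 nM by 0.86 (limma adjusted p = 9.63e-14) and GNE, which starts sialic acid synthesis from UDP-GlcNAc, by 0.93 (adjusted p = 1.31e-10). MGAT5, an N-glycan branching enzyme, rose by 1.00 at 800 nM (limma adjusted p = 2.79e-09), and NANS, the sialic acid synthase, by 0.80 (adjusted p = 6.2e-06). At 400 nM MGAT5 rose by 0.66 (limma adjusted p = 5.33e-05), and was at 0.57, under 1.5-fold, without the second DMSO library.

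Other glycosaminoglycans draw on the same UDP-sugars, and 18 of 20 genes of their synthesis were tested in the siRNA run and 17 in the C16 run. PKR siRNA 1 called 1 up and 5 down, with a median log2 fold change of -0.23 beside -0.01 over all genes. Of all genes PKR siRNA 1 called 8.53% up and 12.6% down. XYLT2, which starts the sugar linker on core proteins, fell by 1.16 (limma adjusted p = 3.07e-09) and GLCE, the heparan sulfate epimerase, by 1.14 (adjusted p = 3.48e-09). CSGALNACT2, a chondroitin sulfate enzyme, rose under PKR siRNA 1 by 0.64 (limma adjusted p = 1.94e-06) and under PKR siRNA 2 by 0.72 (adjusted p = 1.43e-07). Without the third control library its value under PKR siRNA 1 was 0.55, under 1.5-fold. NDST1, a heparan sulfate sulfotransferase, fell by 0.65 under PKR siRNA 2 (limma adjusted p = 4.06e-13), the only gene of the list called down there. C16 called 1 up and 2 down at either dose. Of all genes it called 11.6% up and 14.1% down at 800 nM, and 7.08% and 5.45% at 400 nM. CHPF, a chondroitin polymerizing factor, rose from 25.6 ± 1.53 normalized counts to 61.4 ± 8.61 and 63.1 ± 3.45 at 400 and 800 nM (log2 fold changes 1.22 and 1.27, limma adjusted p = 7.1e-08 and 9.91e-09). B3GALT6, a linker galactosyltransferase, fell by 0.78 and 1.19 (limma adjusted p = 0.000458 and 9.66e-08), and B4GALT7, which acts before it, fell by 0.66 and 0.79 (adjusted p = 0.0234 and 0.00333). The B4GALT7 call at 400 nM was lost in DESeq2 (adjusted p = 0.102). It was also lost in limma without the first DMSO library (-0.60, adjusted p = 0.0943), the second (-0.65, adjusted p = 0.0683) or the third 400 nM library (-0.57, adjusted p = 0.0923).

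**Figure D5:**
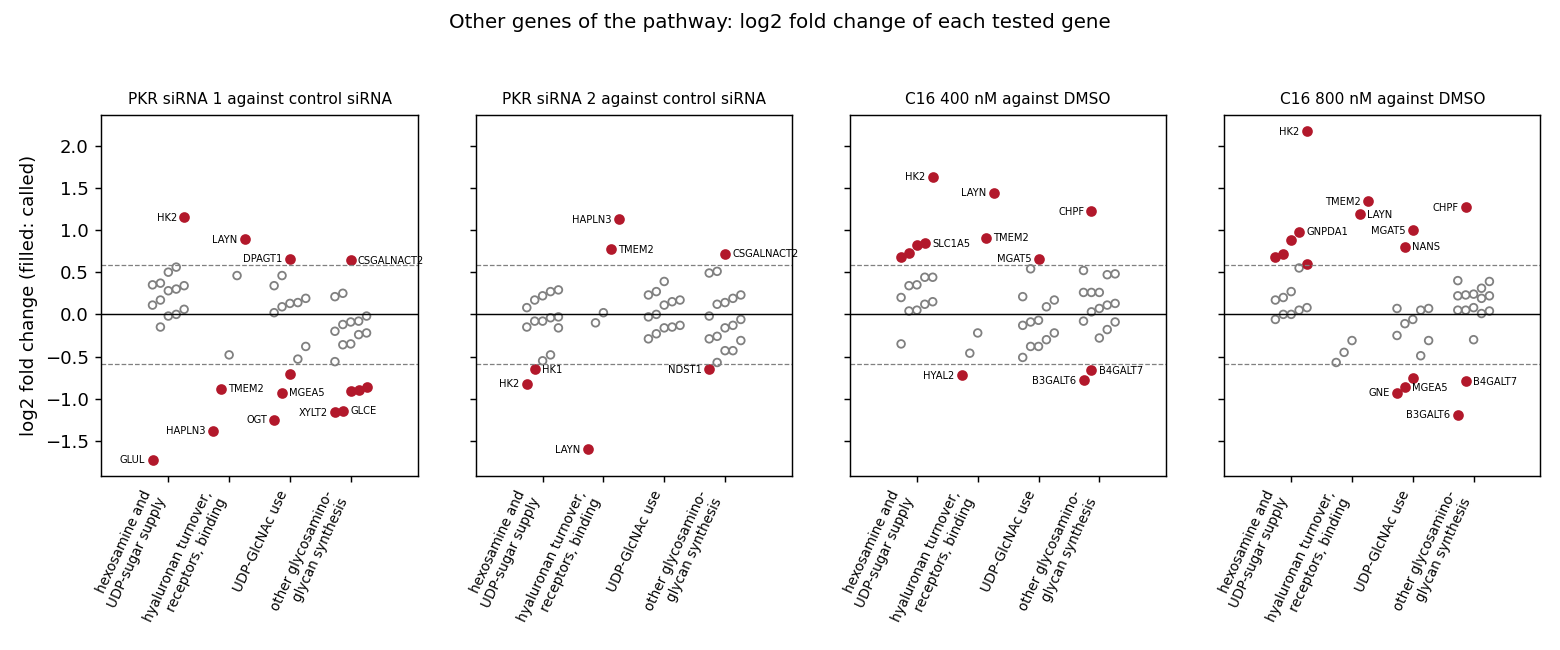
Log2 fold change (y axis) of each tested gene of the 4 neighbouring lists (x axis) in 4 comparisons with the control group. Filled points passed the call, open points did not, dashed lines mark 1.5-fold, and the named genes are the strongest calls of each list. HK2 reads 1.15, -0.82, 1.63 and 2.17 from left to right.

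The genes whose level followed HAS3 and UAP1 most closely were listed by Pearson's r of log2(normalized count + 1) over the 9 libraries of a run, as a description. The points share 3 groups, so r mostly reflects the group means. In the C16 run HAS3 was most like ATF3, a stress-induced transcription factor (r = 0.992), GARS, the glycyl-tRNA synthetase (0.991), and PSD3 (0.988). ATF3 had 15.7 ± 1.57 normalized counts in DMSO, 63.6 ± 2.42 at 400 nM and 61.4 ± 2.77 at 800 nM. UAP1 was most like HSPA5, the main chaperone of the endoplasmic reticulum (r = 0.993), PVR, a cell adhesion molecule (0.989), and EEF1A2, an elongation factor (0.986). HSPA5 had 1015 ± 26.2 normalized counts in DMSO, 1556 ± 43.5 at 400 nM and 1485 ± 63.6 at 800 nM. In the siRNA run the lists held other genes. HAS3 was most like HN1 (r = 0.989), COL7A1, the collagen of anchoring fibrils (0.988), and MLKL, the effector of necroptosis (0.987). UAP1 was most like RAI14 (r = 0.986), E2F7, a repressor of the E2F family (0.985), and GFM1, a mitochondrial elongation factor (0.982). ATF3 had 21.1 ± 7.26 normalized counts with control siRNA, 52.4 ± 6.97 under PKR siRNA 1 and 48.6 ± 8.93 under PKR siRNA 2. It was thus higher with both siRNAs, where HAS3 was lower. PSD3 was lower with both, at means of 134, 113 and 78.8. GARS, at means of 796, 981 and 748, was higher under PKR siRNA 1 and overlapped the control under PKR siRNA 2.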

How the data were processed

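Poly(A) RNA of PANC-1 cells was sequenced as paired reads in 18 libraries from a directional kit. Per the submitters' processing notes and the methods, the authors used TopHat against hg38, then featureCounts per gene, then the TMM method of TCC. Versions, annotation and strand of counting are not given in the sources used here. What was deposited is 1 table per run of this normalized signal, called normalized counts here, with low values kept. Divided by what 1 read is worth in its library, 100.0% of the low values came out whole within 0.02 reads, so reads were recovered. For replicate 1 of PKR siRNA 2 and replicate 1 of C16 at 800 nM that value lies too near 1 to tell. All columns were assigned to a sample by their names.

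Genes averaging 10 normalized counts or more over the 9 libraries of a run were tested with limma 3.58.1 in R 4.3.3 (trend, two-sided, Benjamini-Hochberg) on log2(normalized count + 1). Each fit held all 3 groups of a run. Adding 1 understates the change of low genes. Ratios were tested by exact permutation. Levels per kilobase used the exon lengths of the deposited gene models. The 18 pairs of replicates differed by more than sampling noise (chi-square per degree of freedom 1.03 to 1.63) and none were merged. This excess does not show whether the replicates were separate cultures. Scripts were tested on simulated reads.

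The members and the lists were chosen with earlier results of these data known. The named genes are all members, EIF2AK2, and the 3 genes most like HAS3 and UAP1 in each run. Of each list, the 2 strongest rises and falls among the called genes are named, for comparisons with a control group. AMDHD2 and GPI were named after their values were seen. The recovered reads were also tested with DESeq2 1.42.0 and the quasi-likelihood test of edgeR 4.0.16. The limma fit was repeated with pseudocounts of 0.5 or 5, with every gene or a minimum of 30, after rescaling by median of ratios, without the third group, with the replicate number as a block, and leaving out single libraries. Exon positions used to trim the printed windows came from GENCODE on GRCh38.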

Additional observations from a re-analysis of the deposited data

Results flagged for a closer look

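The 7 members below differed between PKR siRNA 2 and PKR siRNA 1 in a direct test, although both siRNAs are directed against the same gene and EIF2AK2 was low with both. HAS2 was higher with PKR siRNA 2 by 2.34 on the log2 scale, UGDH by 2.20 and CD44 by 0.68. HAS3 was at -0.76, GFPT1 at -0.63, GNPNAT1 at -1.31 and UAP1 at -0.81. For each of these genes all 3 libraries of PKR siRNA 2 lay on the same side of all 3 libraries of PKR siRNA 1. Of all genes tested, 16.4% were called higher and 15.3% lower in this comparison. For HAS2, UGDH, CD44, GFPT1, GNPNAT1 and UAP1 the siRNAs lay on opposite sides of the control, whereas HAS3 was below the control with both.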

How the results depend on the processing

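Of 861 recomputed log2 fold changes of members, 849 kept their call, which combines the adjusted p with the 1.5-fold limit, and 0 of the called values reversed. In the C16 run, keeping meant a move of less than the gene's own spread between replicates, which a noisy gene passes easily. HAS2 at 800 nM against DMSO ran from -1.57 to -0.60 and still counted as kept. Among changes that stayed under 1.5-fold, the adjusted p lay on both sides of 0.05 for CD44 with PKR siRNA 1 (0.0125 to 0.103), for GFPT1 (0.00282 to 0.0655), GNPNAT1 (0.0317 to 0.235) and PGM3 (0.00141 to 0.233) with PKR siRNA 2, and for PGM3 between the siRNAs (0.0435 to 0.939). The count of members called with PKR siRNA 1 went from 2 to 1 in DESeq2, with only the groups compared and with a pseudocount of 5, and ranged from 1 to 2 with 1 library left out. HAS2 was the gene lost each time (adjusted p = 0.129, 0.053 and 0.0201 in those fits, the last at -0.53 and under 1.5-fold). It was lost without Control siRNA replicate 1 and without PKR siRNA 1 replicate 2. GFPT1 between the siRNAs fell under 1.5-fold without PKR siRNA 1 replicate 3 (-0.58) or PKR siRNA 2 replicate 3 (-0.57), and CD44 passed it without PKR siRNA 2 replicate 1 (0.59). HAS3 at 800 nM was 3.33 in edgeR and DESeq2. Neighbouring genes called between 800 and 400 nM went from 0 to 1, AMDHD2, in edgeR and with only the groups compared, and ranged from 0 to 1 with 1 library left out. Of 1214 recomputed values of called neighbouring genes, 1185 stayed called and 29 were lost, 0 with a change of sign. Same-numbered libraries did not deviate together (r from -0.05 to 0.03), so the numbers do not pair them, and the replicate block left 2, 3 and 7 members called and 15, 7, 18, 16, 12 and 0 neighbouring genes, as without it. Median-of-ratios rescaling moved the median of all genes by under 0.1 on the log2 scale. HAS2 and GFPT2 in the C16 run and LAYN are limited by depth. So are the fold changes of HAS3 and HK2 against DMSO, where each had 7 or 8 reads per library.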
